A study of Homo sapiens with 12 samples.

Results

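Expression after 1 passage in astrocyte-conditioned medium (ACM) was compared with 1 passage in control medium (DMEM) in Daoy cells, an established human medulloblastoma (MB) line, over the probes that were bright on every array of the series. A bright probe was one that the scanner software called well above background on all 12 arrays, and this held for 24716 (72.4%) of 34127 probes. They measured 20114 of 27708 genes, each taken through its bright probe with the highest mean signal, and 15535 of these genes had a RefSeq symbol. The P1 ACM group was 3 samples of Daoy cells kept for 1 passage of 48 h in ACM, and the P1 DMEM group was 3 samples kept as long in DMEM. Both media contained 10% fetal bovine serum, and ACM was DMEM conditioned by primary astrocytes of neonatal rat pups, 1 to 2 days old. The other 6 arrays of the series were Daoy cells after 3 passages in ACM (P3 ACM, 3 arrays) and in DMEM (P3 DMEM, 3 arrays), and they entered only where stated. Daoy is a single line, and the labels do not say whether a replicate number stood for a shared batch of medium, so p-values here measure the spread between these samples. In bulk RNA, fewer cells of a type and less RNA per cell cannot be told apart.

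Astrocytes release lipoproteins, amino acids, metals and cytokines into their medium, and several gene programs of a receiving cell answer to such nutrients. The sterol regulatory element-binding proteins (SREBPs) are membrane-held factors that are cut free and switch on cholesterol and fatty acid genes when the membrane is short of sterol, and INSIG proteins hold them back. ATF4 is a factor whose translation increases when amino acids run short or the endoplasmic reticulum is stressed, and it switches on amino acid transporters and synthetic enzymes. Metallothioneins are small cysteine-rich proteins that bind zinc and copper and follow the supply of these metals.

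The media lay on different slides. Arrays that shared a scan date in the scanner files were taken as the same slide, and no slide label was read. All P1 ACM arrays were on slide 1, beside P3 ACM replicate 1. P1 DMEM replicates 1 and 2 were on slide 2, beside P3 ACM replicates 2 and 3. P1 DMEM replicate 3 was on slide 3, where all P3 DMEM arrays lay. No slide held both media at P1, so medium and slide cannot be told apart from the P1 arrays alone. Slide can be fitted as a block only through the P3 ACM arrays on slides 1 and 2. In that fit P1 DMEM replicate 3 only sets the term of slide 3. The difference then rests on P1 DMEM replicates 1 and 2, and the term of slide 1 on P3 ACM replicate 1 alone. The share of probes well above background was 90.9% to 94.6% in the P1 ACM arrays, 74.2% and 80.2% in the P1 DMEM arrays of slide 2, and 90.2% in P1 DMEM replicate 3. Among probes spotted 10 times, the median SD of the 10 log2 signals was 0.0726 to 0.0749 on slide 1 and 0.0422 to 0.0613 on slides 2 and 3. A second limit concerns the labels. None (0) of the 12 columns of the table of processed values that the authors also deposited ranked the probes as the scanner array of the same label did, and each ranked them as the array of another label (Spearman's rho 0.999975 or more). The columns labelled P3 DMEM matched the scanner arrays labelled P1 ACM. Every direction below rests on the labels of the scanner arrays, and under the labels of that deposit 39 of the 43 genes that are named below as past the thresholds had a difference of the opposite sign.

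Levels are log2 of the background-corrected signal minus the 75th percentile of the array, so that a level of 0 is the 75th percentile, and a difference is the mean of the 3 P1 ACM arrays minus that of the 3 P1 DMEM arrays. With the thresholds that the study used, more than 2-fold and an unadjusted p of 0.05 or less (limma, all 12 arrays in the fit), 901 of 20114 bright genes (4.48%) differed. Of these, 876 (4.36%) were higher and 25 (0.124%) were lower in P1 ACM. After Benjamini-Hochberg adjustment over the 20114 genes none (0) passed 0.05, the smallest adjusted p was 0.135, and 3377 (16.8%) had an unadjusted p up to 0.05, 3091 (15.4%) higher and 286 (1.42%) lower. In a fit of the 6 P1 arrays alone, 2079 genes (10.3%) passed an adjusted p of 0.05, 2056 of them higher, and in the fit of 11 arrays without P3 ACM replicate 1 the count was 2134. Over all bright genes the median SD between the 3 samples was 0.188 in P1 ACM and 0.193 in P1 DMEM, and the median absolute difference between the media was 0.208. With 3 arrays against 3, an exact permutation test of a single gene cannot give a p below 0.1. The 3 P1 ACM arrays lay above all 3 P1 DMEM arrays in 21.8% of the genes and below them in 6.69%.

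Higher calls were concentrated among dim genes. The dimmest tertile of the bright genes by mean level over the 12 arrays (levels of −5.66 to −2.20) held 754 (86.1%) of the 876 higher genes, the middle tertile 93 and the brightest tertile 29. Lower genes were spread over the tertiles, with 9, 10 and 6. The median difference was 0.40 in the dimmest tertile, 0.03 in the middle and −0.09 in the brightest. Quantile normalization, which gives all arrays the same distribution of signals, left medians of −0.02, −0.03 and −0.015, with 306 genes higher (1.52%) and 95 lower (0.472%). The share of higher genes among the calls was then 76.3% in place of 97.2%. Of the 876 higher genes 294 were still called higher under it, and of the 25 lower genes 22 were still called lower. Normexp background correction before quantile normalization left 166 higher and 31 lower.

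**Figure D1:**
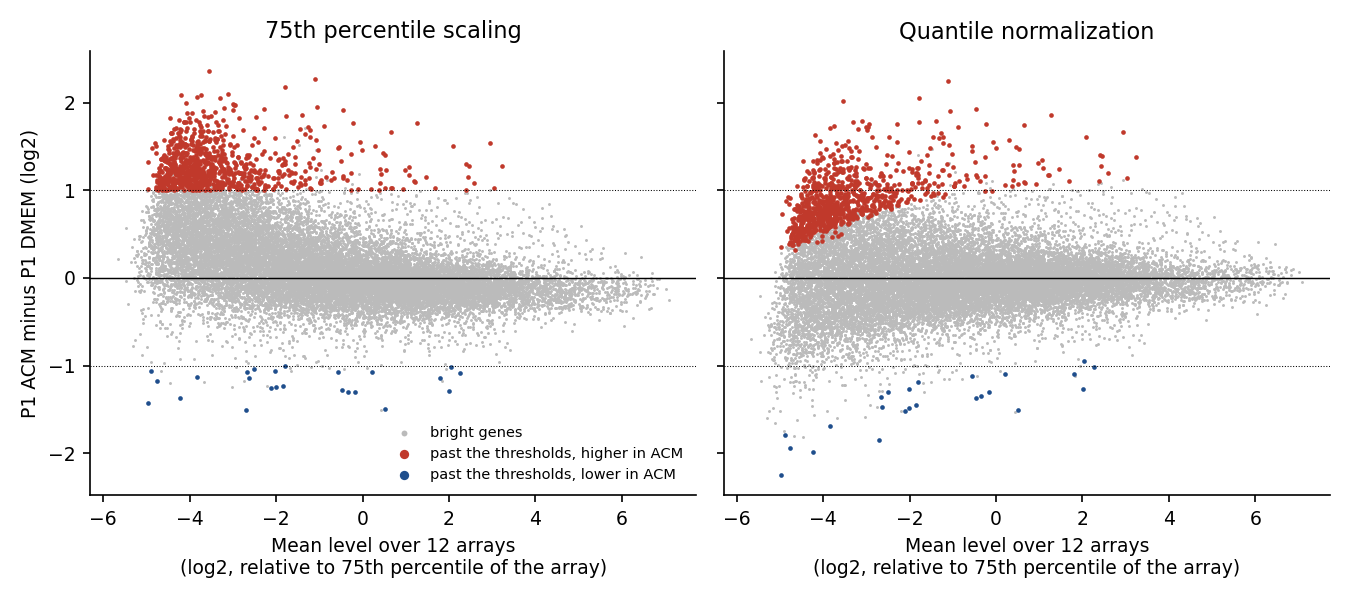
Difference between P1 ACM and P1 DMEM (log2, vertical axis) against the mean level over the 12 arrays (log2, horizontal axis) for the bright genes except 1 that is not drawn. Points in colour are the genes past 2-fold and p 0.05 with 75th percentile scaling, shown with that scaling (left) and with quantile normalization (right), and dotted lines mark 2-fold. The cloud of dim genes lies above 0 on the left, with a median of 0.40 in the dimmest tertile, and near 0 on the right.

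The P3 arrays that shared the slides were set beside the calls. Over the 876 higher genes the median level was −2.91, −2.77 and −2.86 in the P1 ACM arrays and −4.29, −4.03 and −4.06 in the P1 DMEM arrays. It was −2.63 in P3 ACM replicate 1, on slide 1, and −4.25 and −4.36 in P3 ACM replicates 2 and 3, on slide 2. In 850 of the 876 genes P3 ACM replicate 1 was at or above the lowest P1 ACM array, against 33 and 43 genes for P3 ACM replicates 2 and 3 and 35 to 64 genes for the 3 P3 DMEM arrays. Among the P3 arrays, these genes were high in the array on slide 1 and low in the others of either medium. For 21, 18 and 21 of the 25 lower genes the P3 ACM arrays, on slides 1 and 2, were at or below the highest P1 ACM array. The P3 DMEM arrays, all on slide 3, were so for 8, 8 and 7 of them. The P3 media shared no slide, so for these genes medium and slide cannot be told apart at P3. With slide as a fixed block, 224 genes passed the thresholds, 83 higher (0.413%) and 141 lower (0.701%), and they included 9 of the 876 higher genes as higher and 4 of the 25 lower genes as lower. All 25 lower genes still had a negative difference in that fit, and 154 of the 876 higher genes a positive one. With slide as a random block 202 higher and 12 lower genes passed.

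**Figure D2:**
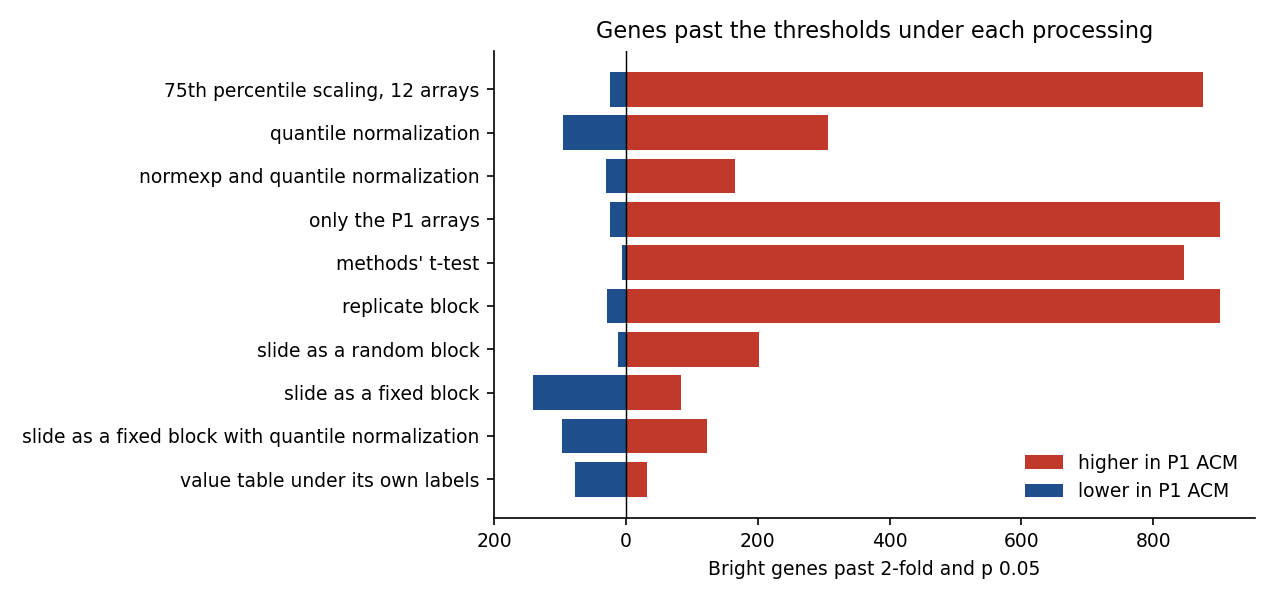
Number of bright genes past 2-fold and p 0.05 under each processing, with genes higher in P1 ACM to the right of 0 and genes lower to the left. Higher genes number 876 with 75th percentile scaling, 306 with quantile normalization and 83 with slide as a fixed block.

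Of the genes that control sterol supply, INSIG1 and SREBF1 were lower in P1 ACM past the thresholds, and none (0) passed an adjusted p of 0.05. INSIG1, which retains SREBPs in the endoplasmic reticulum and is itself an SREBP target, had levels of −0.59, −0.55 and −0.78 in the P1 ACM arrays and 1.78, 0.46 and −0.26 in the P1 DMEM arrays. The groups did not overlap, and P1 DMEM replicate 1 stood highest. The difference was −1.30 (SE 0.41, 2.46-fold lower, adjusted p = 0.148), and −2.23 with slide as a block, past the thresholds. Without P1 DMEM replicate 1 it was −0.74, under 2-fold. SREBF1, the gene of the SREBP that serves mainly fatty acid synthesis, had levels of 1.09, 1.09 and 2.07 in P1 ACM and 2.75, 2.03 and 2.53 in P1 DMEM. The highest ACM array overlapped the lowest DMEM array, and the difference was −1.01 (SE 0.29, adjusted p = 0.135). It was under 2-fold without any 1 of 4 P1 arrays (−0.85 to −0.97 without P1 ACM replicate 1 or 2 or P1 DMEM replicate 1 or 3) and with quantile normalization (−0.95), it was −0.48 with slide as a block, and a dimmer bright probe of SREBF1 gave 0.02. Both belong to the 12 bright genes of SREBP control and sterol transport, of which 2 were past the thresholds, both lower, and 10 had a lower mean in ACM. Over all bright genes 0.124% were lower past the thresholds and 43.8% had a lower mean.

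Of the 20 enzymes of cholesterol synthesis, all bright, 18 had a lower mean in P1 ACM and none (0) was past the thresholds. Their median difference was −0.46, against 0.05 over all bright genes, and it was −0.49 with quantile normalization and −0.73 with slide as a block. LSS, lanosterol synthase, had the largest difference, −0.99 (SE 0.36, adjusted p = 0.192), with levels of −0.16, 0.25 and 0.45 in ACM and 1.87, 1.36 and 0.30 in DMEM, and its other bright probe gave −0.50. HMGCS1, which makes the substrate of the rate-limiting step, differed by −0.95 (adjusted p = 0.343), DHCR7, the enzyme of the last step, by −0.83 (adjusted p = 0.246), and SQLE, squalene epoxidase, by −0.74 (adjusted p = 0.267). In none (0) of the 20 genes did the groups stay apart, and in LSS, HMGCS1, DHCR7 and SQLE P1 DMEM replicate 3 lay within the ACM range. The median level of the 20 genes was 0.66, 0.49 and 0.47 in the P1 ACM arrays and 1.85, 1.17 and 0.49 in the P1 DMEM arrays. Without P1 DMEM replicate 1 the median difference was −0.16, and without P1 DMEM replicate 3 it was −0.76. The difference with slide as a block does not use P1 DMEM replicate 3 either. In P3 DMEM, all on slide 3, the median level of these genes was 1.07, 1.44 and 0.62, and in P3 ACM 0.41, 0.81 and 0.50.

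Among 19 bright genes of fatty acid synthesis and desaturation, 15 had a lower mean in ACM, with a median of −0.14, and FADS2, the delta-6 desaturase of polyunsaturated fatty acids, was past the thresholds. Its levels were 0.97, 1.55 and 2.54 in ACM and 3.32, 2.68 and 2.30 in DMEM, so that P1 ACM replicate 3 overlapped the DMEM range. The difference was −1.08 (SE 0.49, adjusted p = 0.295). It missed p 0.05 with quantile normalization and without P1 ACM replicate 1 (−0.72), P1 ACM replicate 2 (−1.01), P1 DMEM replicate 1 (−0.80) or P1 DMEM replicate 2 (−1.12), and with the replicate number as a block. It was −0.05 with slide as a block. SCD, FASN and ACACA, the desaturase, the synthase and the carboxylase of the pathway, differed by −0.70, −0.50 and −0.48, and none (0) of these 3 was past the thresholds. LIPG, endothelial lipase, which acts on lipoprotein phospholipids, had levels of −1.19, −0.76 and −0.82 in ACM and 0.47, 0.41 and −0.44 in DMEM, without overlap. Its difference was −1.07 (SE 0.37, adjusted p = 0.171), and −0.94, −0.91 and −0.94 without P1 ACM replicate 1, P1 DMEM replicate 1 or P1 DMEM replicate 2. With slide as a block LIPG differed by −0.22.

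Most genes of the amino acid response had lower means in P1 ACM, by amounts that P1 DMEM replicate 3 raised. Of 39 targets of ATF4, all bright, 37 had a lower mean in P1 ACM, 11 (28.2%) were lower without overlap of the arrays, against 6.69% of all bright genes, and 2 were past the thresholds. The median difference was −0.52, −0.61 with quantile normalization and −0.24 with slide as a block, where 26 of the 39 were lower. SLC6A9, the glycine transporter GlyT1, had levels of −0.45, −0.36 and 0.13 in ACM and 1.03, 0.45 and 2.34 in DMEM. The groups did not overlap and the difference was −1.50 (SE 0.43, 2.83-fold lower, adjusted p = 0.135). A second bright probe of SLC6A9 gave −1.23, and with slide as a block the difference was −0.94, short of the thresholds. SLC7A11, the cystine and glutamate exchanger, had levels of −1.58, −1.09 and −0.997 in ACM and −0.32, −0.91 and 1.40 in DMEM, again without overlap, and differed by −1.28 (SE 0.49, adjusted p = 0.21). In both genes P1 DMEM replicate 3 was far above the other DMEM arrays, and without it the differences were −0.97 and −0.61. SLC7A11 also missed p 0.05 without P1 ACM replicate 1 (−1.101) and with slide as a block (−0.96).

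Of the other members, 5 were lower and 1, CHAC1, was higher at an unadjusted p up to 0.05. PSAT1, which makes phosphoserine in serine synthesis, differed by −0.87 (adjusted p = 0.14), PSPH, the phosphatase of the next step, by −0.63 (adjusted p = 0.181), and MTHFD2, a mitochondrial folate enzyme, by −0.75 (adjusted p = 0.208). SLC1A5, the neutral amino acid transporter ASCT2, differed by −0.69 (adjusted p = 0.221), and STC2, a secreted glycoprotein, by −0.72 (adjusted p = 0.188). In these 5 genes the groups did not overlap, and none (0) reached 2-fold. PSAT1 had levels of 2.69, 2.52 and 2.53 in ACM and 3.34, 2.93 and 4.06 in DMEM. ATF4 itself was at 4.37, 4.55 and 4.56 in ACM and 4.65, 4.68 and 5.73 in DMEM, which did not overlap, with a difference of −0.52 (SE 0.28, adjusted p = 0.382). CHAC1, which degrades glutathione, differed by 0.77 (SE 0.34, adjusted p = 0.284) with overlapping groups, but its second, dimmer bright probe gave −1.18, so its direction was not settled. NUPR1, a stress-induced nuclear protein, differed by −1.17 and GDF15, a stress-induced secreted factor, by −0.98, with SEs of 0.76 and 0.96. Without P1 DMEM replicate 3 the median difference of the 39 genes was −0.12. The median level was 1.23, 1.13 and 1.81 in the P1 ACM arrays and 1.38, 1.33 and 2.82 in the P1 DMEM arrays, so 2 of the 3 DMEM arrays lay between the ACM arrays. It was 1.56, 1.22 and 2.02 in P3 ACM and 1.75, 1.81 and 2.58 in P3 DMEM. In every group replicate 3 had the highest median. At each replicate number the ACM median was below the DMEM median, at P1 and at P3. Whether a replicate number stood for a shared batch was not stated.

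The promoters of the list were searched for the letters TGATGNAA, the core of the site that ATF4 binds with C/EBP partners, on both strands of the 250 bases before each start site in RefSeq (GRCh38.p14). Of the 31 bright list members with a promoter there 7 (22.6%) held it, against 3.89% of the 27305 genes of the whole table. The 7 are shown because they place the element beside the values: each line is a stretch of the gene's own strand, 5′ to 3′, with the matched letters in capitals.
ASNS: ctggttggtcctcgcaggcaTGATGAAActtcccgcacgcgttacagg
ATF3: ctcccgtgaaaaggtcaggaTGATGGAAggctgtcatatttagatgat
CEBPG: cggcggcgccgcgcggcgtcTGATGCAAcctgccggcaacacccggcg
CHAC1: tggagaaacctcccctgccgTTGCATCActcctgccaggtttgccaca
FGF21: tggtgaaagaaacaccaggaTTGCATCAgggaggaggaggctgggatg
JDP2: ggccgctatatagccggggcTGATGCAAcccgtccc
SLC1A5: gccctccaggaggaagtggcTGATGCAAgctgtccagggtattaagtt
The stretch of ASNS, the gene of asparagine synthetase, lies at chr7:97872449-97872496 on the minus strand, and its element begins 68 bases before the start site. That of SLC1A5 lies at chr19:46784884-46784931 on the minus strand, with the element 97 bases before the start, and that of CEBPG at chr19:33374051-33374098 on the plus strand, 42 bases before it. In CHAC1 (chr15:40953242-40953289, plus strand) and FGF21 (chr19:48755450-48755497, plus strand) the match is on the opposite strand. The stretch of ATF3 lies at chr1:212565196-212565243 and that of JDP2 at chr14:75427986-75428021, both on the plus strand. The differences of the 7 genes were −0.74 for ASNS, −0.67 for ATF3, −0.28 for CEBPG, 0.77 for CHAC1, −0.19 for FGF21, −0.52 for JDP2 and −0.69 for SLC1A5. Other bright probes differed in sign for CHAC1 (−1.18) and for ATF3 (−0.45, 0.15 and 0.19). None (0) of the 7 was past the thresholds, and SLC1A5 was the 1 whose groups did not overlap. ASNS had levels of 2.77, 2.61 and 2.98 in ACM and 3.18, 2.86 and 4.55 in DMEM, which overlapped.

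The letters TCACNCCAC, a form of the sterol element that SREBPs bind, were found in none (0) of the 15 cholesterol synthesis genes of that table, in 1 of 12 genes of SREBP control and sterol transport, and in 1.09% of the 27305 genes. The 1 was SREBF2, the gene of the SREBP that serves mainly cholesterol synthesis, shown because its product acts on that list.
SREBF2: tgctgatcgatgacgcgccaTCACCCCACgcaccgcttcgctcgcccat
This stretch lies at chr22:41832952-41833000 on the plus strand of GRCh38.p14, with the element 133 bases before the start site. SREBF2 differed by −0.26 (SE 0.17, adjusted p = 0.536). The same letters were also found in ACSL1, a fatty acid CoA ligase of the fatty acid list, which differed by 0.28 (adjusted p = 0.65).

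Of 14 bright genes for metallothioneins and zinc transport 13 had a lower mean in ACM, with a median of −0.51, and MT1M and MT1F were past the thresholds. Over all bright genes 43.8% had a lower mean and 0.124% were lower past the thresholds. MT1M had levels of 1.68, 2.67 and 0.18 in ACM and 2.80, 3.13 and 2.46 in DMEM, and MT1F had levels of −2.67, −1.69 and −2.73 in ACM and −1.73, −1.06 and −1.13 in DMEM. In both, P1 ACM replicate 2 overlapped the DMEM range. The differences were −1.29 (SE 0.48, adjusted p = 0.199) and −1.06 (SE 0.35, adjusted p = 0.156). MT1G differed by −1.03 (adjusted p = 0.353) with groups that did not overlap, and MT1E by −0.88 (adjusted p = 0.399). The median level of the 14 genes was 1.56, 2.40 and 0.17 in the P1 ACM arrays and 2.00, 2.28 and 2.00 in the P1 DMEM arrays. P1 ACM replicate 3 set much of the median: without it, it was −0.13, and MT1M differed by −0.63. MT1M also missed p 0.05 without P1 DMEM replicate 2 (−1.13), and MT1F fell short of 2-fold without P1 ACM replicate 1 (−0.90) or 3 (−0.87) or P1 DMEM replicate 2 (−0.94) or 3 (−0.97). The median was −1.40 with slide as a block. At P3 the list was not lower in ACM. The median level of the 14 genes was 1.95, 1.97 and 1.03 in P3 ACM and 1.28, 1.00 and 1.38 in P3 DMEM. The P3 differences were 0.22 for MT1M, 0.02 for MT1F, 0.47 for MT1G and 0.35 for MT1E. Metallothionein probes can share sequence between near-identical copies, so values of single genes of this family are uncertain.

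**Figure D3:**
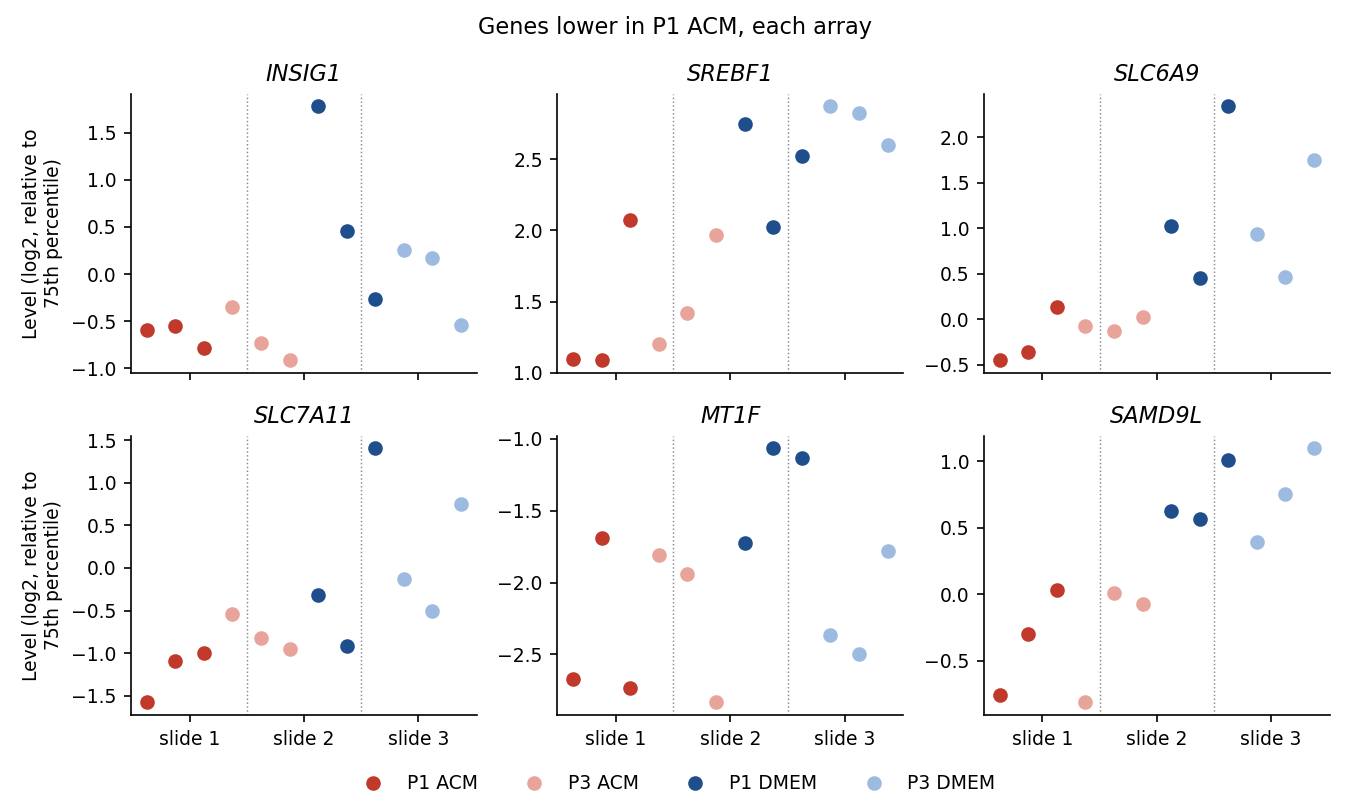
Level on each of the 12 arrays (log2, from the 75th percentile of each array, vertical axis) for 6 genes lower in P1 ACM, ordered by slide, with dotted lines between slides. Each point is an array, in the colour of its group. INSIG1, SLC6A9, SLC7A11 and SAMD9L have all P1 ACM arrays below all P1 DMEM arrays, and MT1F and SREBF1 overlap.

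Of 25 bright targets of NRF2, the factor of the antioxidant response, 3 were past the thresholds: SLC7A11 lower and AKR1C1 and AKR1C3 higher. Over all bright genes 0.124% were lower and 4.36% higher. The aldo-keto reductases AKR1C1 and AKR1C3 reduce steroids and reactive aldehydes. AKR1C3 had levels of 0.51, 0.02 and 0.02 in ACM and −1.12, −1.35 and −0.03 in DMEM, which did not overlap, and a difference of 1.01 (SE 0.34, adjusted p = 0.161). It fell short of 2-fold with quantile normalization (0.99) and without P1 ACM replicate 1 (0.85) or P1 DMEM replicate 1 (0.87) or 2 (0.75). AKR1C1 differed by 1.20 (SE 0.40, adjusted p = 0.164), with overlap, and by 0.85 and 0.96 without P1 ACM replicate 1 or P1 DMEM replicate 2. Both stayed positive with slide as a block, AKR1C3 at 0.89 and AKR1C1 at 0.67. AKR1C genes are close relatives whose probes can bind each other's transcripts. NQO1, a quinone reductase and a usual marker of the response, went the other way (−0.66, adjusted p = 0.25, no overlap), and 19 of the 25 genes had a lower mean.

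Of 32 bright interferon response genes 23 had a lower mean in ACM and none (0) was past the thresholds, with 5 lower at an unadjusted p up to 0.05. The shares over all bright genes were 43.8% with a lower mean and 1.42% lower at that p. IFIT2, an interferon-induced RNA-binding protein, had the largest difference of the list, −1.50, with an SE of 0.91 and levels from −1.67 to 0.73 in ACM and −0.30 to 2.83 in DMEM. With slide as a block IFIT2 differed by 1.26. The median of the list was −0.18, and with slide as a block it was 0.10, with 12 of the 32 genes lower. SAMD9L, an interferon-induced antiviral factor outside the list, was past the thresholds, with levels of −0.76, −0.30 and 0.03 in ACM and 0.62, 0.56 and 1.01 in DMEM, which did not overlap. It differed by −1.07 (SE 0.28, adjusted p = 0.135), by −0.87 and −0.94 without P1 ACM replicate 1 or P1 DMEM replicate 3, and by −0.15 with slide as a block. Of 31 bright NF-kB targets and inflammatory signals 24 had a lower mean, against 43.8% of all bright genes. The median difference of the list was −0.26, and −0.35 with quantile normalization. With slide as a block it was −0.86, with 30 of the 31 genes lower. The median level was 0.59, 1.00 and −0.43 in the P1 ACM arrays and 0.05, 0.15 and 1.31 in the P1 DMEM arrays. None (0) of the 31 was past the thresholds, and 1 was higher at an unadjusted p up to 0.05, against 15.4% of all bright genes. IL1B, a cytokine, ranged from −3.33 to 1.52 over the 3 P1 ACM arrays and from −2.21 to −1.76 in P1 DMEM, so that its difference of 1.71 had an SE of 1.47. PTGS2, TNFAIP2 and LIF went the other way, by −1.17, −0.83 and −0.72, with SEs of 0.76, 0.44 and 0.67. A dimmer bright probe of LIF gave 0.50.

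The remaining genes among the 10 largest falls of genes with a RefSeq symbol served other functions. ELF3, an epithelial transcription factor, had levels of −3.32, −2.53 and −2.43 in ACM and −1.97, −1.46 and −1.08 in DMEM and differed by −1.26 (SE 0.32, adjusted p = 0.135), or −0.98 without P1 ACM replicate 1. FAM43A, a gene of little-known function, differed by −1.30 (adjusted p = 0.141) and by −0.94 without P1 DMEM replicate 3. PMAIP1, the pro-apoptotic protein NOXA, differed by −1.14 (adjusted p = 0.287) and missed p 0.05 without P1 ACM replicate 1 (−0.98), 2 (−1.21) or 3 (−1.23), P1 DMEM replicate 3 (−0.46) or P3 ACM replicate 1 (−1.14), and with quantile normalization (−1.09). It was −0.34 with slide as a block. TMEM154, a membrane protein, differed by −1.13 (adjusted p = 0.135), by −1.83 with slide as a block and by −0.72 without P1 DMEM replicate 1. CBLN3, a cerebellin of granule neurons, differed by −1.42 (adjusted p = 0.246) through P1 DMEM replicate 1, at −2.49 against −5.13 and −5.01 in the other DMEM arrays. Without that array its difference was −0.56, and it also missed p 0.05 without P1 ACM replicate 1 (−1.31) or 2 (−1.40). Of these 5, TMEM154 alone passed the thresholds with slide as a block.

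Highly expressed housekeeping groups had mostly lower means, by small amounts that depended on the processing except in the core histones. Of 78 bright cytosolic ribosomal proteins 67 had a lower mean, with a median of −0.12, and with quantile normalization 40 were lower with a median of −0.0013. Of 31 proteasome subunits 30 had a lower mean and 15 (48.4%) were lower without overlap, against 6.69% of all bright genes, with a median of −0.15, and with quantile normalization 24 were lower with a median of −0.07. PSMB2, a catalytic-core subunit, differed most, by −0.36 (SE 0.13, adjusted p = 0.195), with levels of 4.35, 4.43 and 4.42 in ACM and 4.80, 4.64 and 4.83 in DMEM, but its second, dimmer bright probe gave 0.02. The spliceosome core (36 of 42 lower, median −0.155), DNA replication (36 of 47, −0.11), mitosis (36 of 44, −0.10) and nuclear genes of oxidative phosphorylation (51 of 76, −0.06) also had mostly lower means. With quantile normalization 29, 33, 24 and 31 genes of these 4 lists were lower, with medians of −0.04, −0.05, −0.01 and 0.03. With slide as a block 19, 18, 16 and 39 were lower, with medians of 0.02, 0.09, 0.14 and −0.02. The ribosomal and proteasome medians were then −0.01 and −0.04, with 41 and 17 genes lower. None (0) of these genes was past the thresholds, and 2 ribosomal proteins and 2 proteasome subunits had an unadjusted p up to 0.05. The shares over all bright genes were 4.48% and 16.8%. The brightest tertile as a whole had a median of −0.09. Among 38 translation initiation and elongation factors 30 had a lower mean (median −0.07), and EIF5, an initiation factor, stood apart in size at −0.83 (SE 0.20, adjusted p = 0.135, no overlap), and −0.34 with slide as a block. Of 76 bright core histone genes 65 had a lower mean and 26 (34.2%) were lower without overlap, again against 6.69%, with a median of −0.30 that was −0.29 with quantile normalization and −0.30 with slide as a block. Histone genes are near-identical copies, so their probes are not independent measurements. The numbered zinc finger genes were less highly expressed, with 80 of 422 bright genes in the brightest tertile. Of the 422, 272 had a lower mean, with medians of −0.09, −0.18 with quantile normalization and 0.20 with slide as a block.

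**Figure D4:**
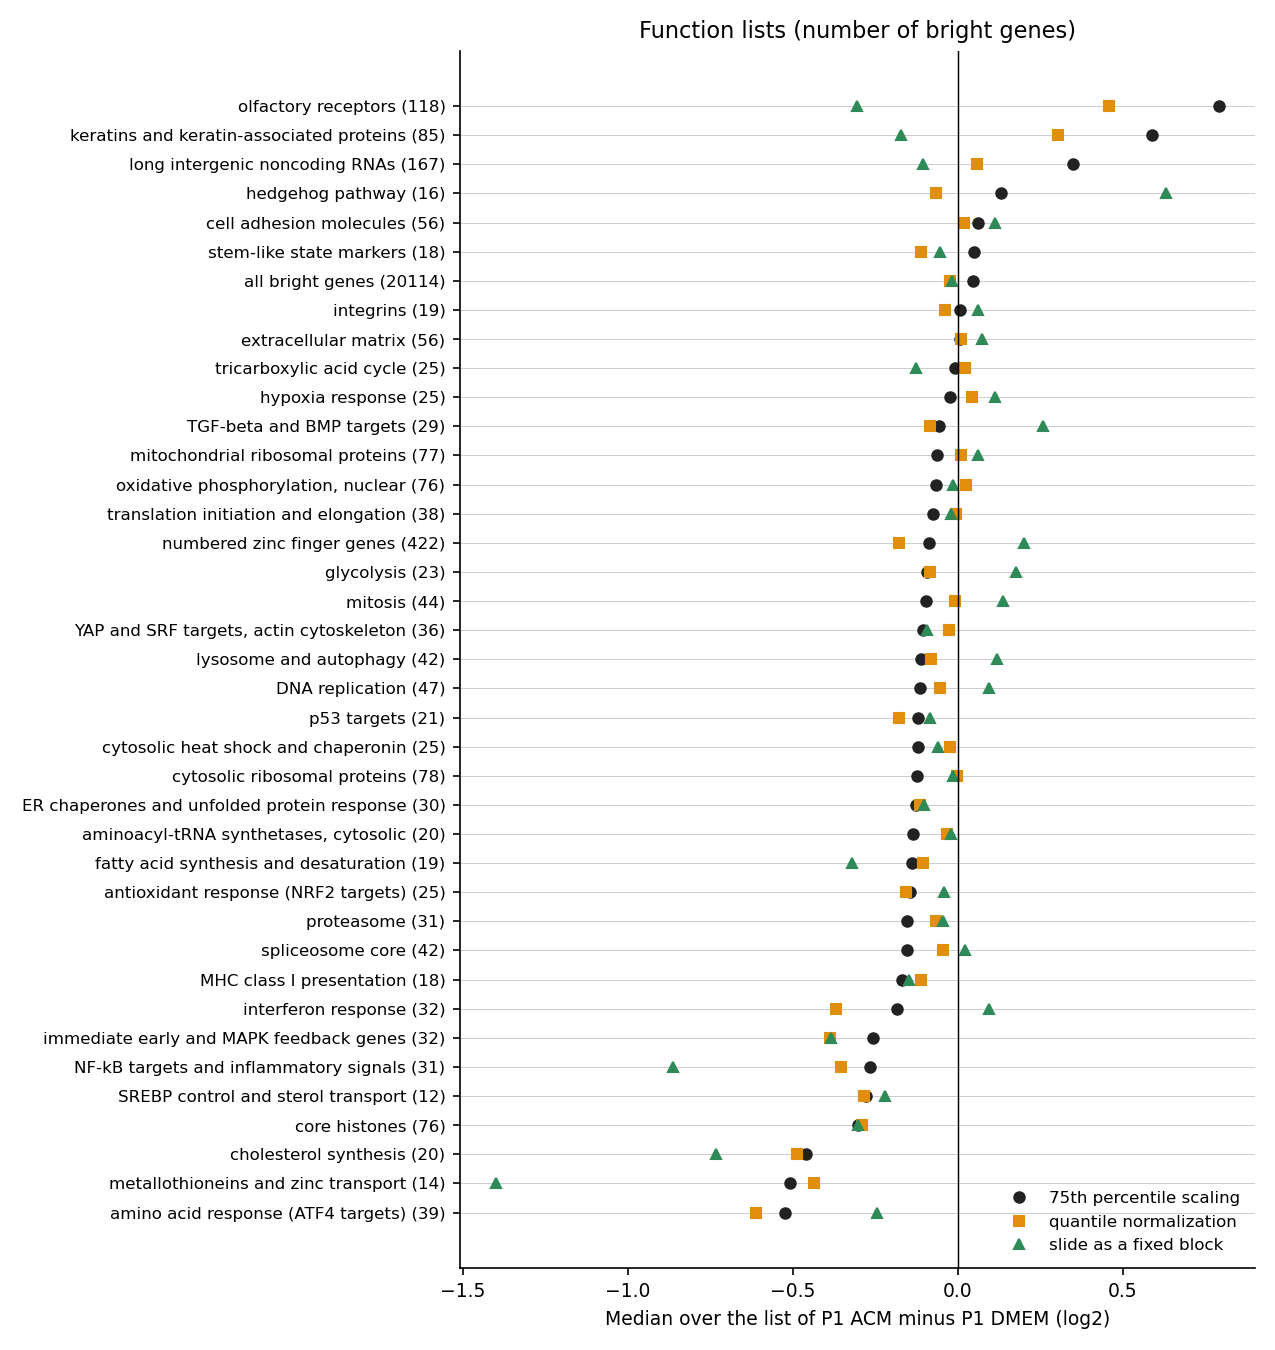
Median over each function list of the difference between P1 ACM and P1 DMEM (log2, horizontal axis), with the number of bright genes in brackets, for 75th percentile scaling (circles), quantile normalization (squares) and slide as a fixed block (triangles). Several lists have negative medians in all 3 fits, among them cholesterol synthesis, metallothioneins, the amino acid response and core histones. NF-kB targets, SREBP control and fatty acid synthesis are others. Olfactory receptors, keratins and long intergenic noncoding RNAs have positive medians in the first 2 fits and negative ones with slide as a block.

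Among genes with a RefSeq symbol and no overlap, the 10 largest rises were HTR2B, OR5P2, MICAL2, KRTAP9-9, PGPEP1L, SCGN, ACOT12, MIMT1, PCDHGC4 and TP53TG5, with differences of 2.27 down to 1.93. HTR2B, a serotonin receptor, had levels of −0.07, 0.55 and 0.41 in P1 ACM and −2.29, −1.70 and −1.94 in P1 DMEM, without overlap. The difference was 2.27 (SE 0.65, 4.83-fold higher, adjusted p = 0.135). P3 ACM replicate 1 was at 0.80 and P3 ACM replicates 2 and 3 were at −1.90 and −2.70, and with slide as a block the difference was −0.81. KRTAP9-9, a keratin-associated protein of hair, had levels of −2.83, −2.89 and −2.86 in ACM and −5.03, −4.92 and −4.91 in DMEM, with P3 ACM replicate 1 at −2.67 and the other P3 ACM arrays at −5.13 and −5.16. SCGN, a calcium-binding protein of endocrine cells, was at −1.83, −1.95 and −1.94 in ACM and −3.96, −3.92 and −4.01 in DMEM, with P3 ACM at −1.60, −3.90 and −4.39. In 9 of the 10 genes the difference was negative with slide as a block, and in MIMT1, an imprinted noncoding RNA, it was 0.15. The call of MICAL2, an actin oxidase, was lost without P1 DMEM replicate 1 (1.71). The call of OR5P2, an olfactory receptor, was lost without P1 DMEM replicate 2 (1.71).

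Families of mostly dim genes were among the higher genes. Of 118 bright olfactory receptors, the odour receptors of the nasal epithelium, 35 (29.7%) were past the thresholds and higher, against 4.36% of all bright genes and 754 of the 6705 genes of the dimmest tertile. None (0) was lower. Of 85 bright keratins and keratin-associated proteins 15 (17.6%) were higher, and of 167 long intergenic noncoding RNAs 23 (13.8%). The dimmest tertile held 89 of the 118 olfactory receptors, 46 of the 85 keratins and 108 of the 167 noncoding RNAs. The median difference was 0.79 for the receptors, 0.59 for the keratins and 0.35 for the noncoding RNAs, it was 0.46, 0.31 and 0.06 with quantile normalization, and it was −0.30, −0.17 and −0.11 with slide as a block. The median level of the receptors was −2.29, −2.23 and −2.32 in P1 ACM, −3.17, −2.96 and −3.07 in P1 DMEM, −2.27 in P3 ACM replicate 1 and −3.19 and −3.53 in the other P3 ACM arrays. Olfactory receptors and keratins were added as groups after their values were seen.

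The 29 higher genes of the brightest tertile were also examined, after their values were seen. The 3 with the largest differences were MADCAM1, a mucosal vascular addressin (1.54), CTRL, a chymotrypsin-like protease (1.50), and CD101, a leukocyte surface protein (1.43). CTRL was at 2.94, 3.08 and 3.00 in P1 ACM and 1.56, 1.35 and 1.59 in P1 DMEM, with P3 ACM at 3.20, 1.11 and 1.08. MADCAM1 was at 3.88, 3.99 and 3.89 in P1 ACM and 2.44, 3.02 and 1.68 in P1 DMEM, with P3 ACM at 3.96, 2.83 and 1.80. In both genes P3 ACM replicate 1 was with the P1 ACM arrays and the other P3 ACM arrays were with DMEM. The differences of MADCAM1, CTRL and CD101 with slide as a block were −0.45, −0.56 and −0.13.

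Only 4 higher and 4 lower genes were past the thresholds with 75th percentile scaling, with quantile normalization and with slide as a block alike. The higher ones were TMEM63C, NOTCH3, CREB3L3 and TRIM15. These fits use the same arrays, so they are not independent, and the difference with slide as a block leaves out P1 DMEM replicate 3. NOTCH3, a Notch receptor, had levels of 1.00, −0.14 and −0.36 in P1 ACM and −1.61, −1.33 and −0.81 in P1 DMEM. P3 ACM was at 0.40, 0.02 and 0.76 and P3 DMEM at −0.79, −0.49 and 0.20, so that the P3 arrays of both media lay above all P1 DMEM arrays. The difference was 1.41 (SE 0.37, adjusted p = 0.135), and 1.63 with slide as a block. Without P1 ACM replicate 1 it was 1.00 and no longer over 2-fold. CREB3L3, a membrane-held factor of lipid metabolism, had levels of 0.23, −0.09 and −0.16 in ACM and −1.99, −1.32 and −1.15 in DMEM, with P3 ACM at −0.13, −0.60 and 0.59 and P3 DMEM at −0.92, −0.86 and −0.28, again all above P1 DMEM. It differed by 1.48 (SE 0.31, adjusted p = 0.135), and by 1.77 with slide as a block, and it kept its call without each P1 array. TMEM63C, an ion channel of the osmosensitive family, differed by 1.19 (SE 0.35, adjusted p = 0.135), and by 0.99 and 0.97 without P1 ACM replicate 3 or P1 DMEM replicate 1. TRIM15, a focal adhesion ubiquitin ligase, differed by 1.83 (SE 0.34, adjusted p = 0.135) and by 1.104 with slide as a block, past the thresholds. It was at −3.71 and −3.81 in the P1 DMEM arrays of slide 2 and −2.67 in that of slide 3, while the P3 ACM arrays were at −1.78, −2.99 and −2.77 and the P3 DMEM arrays at −2.51, −2.13 and −2.65. The P3 DMEM arrays of TRIM15 thus lay above all P1 DMEM arrays and above the P3 ACM arrays of slide 2.

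**Figure D5:**
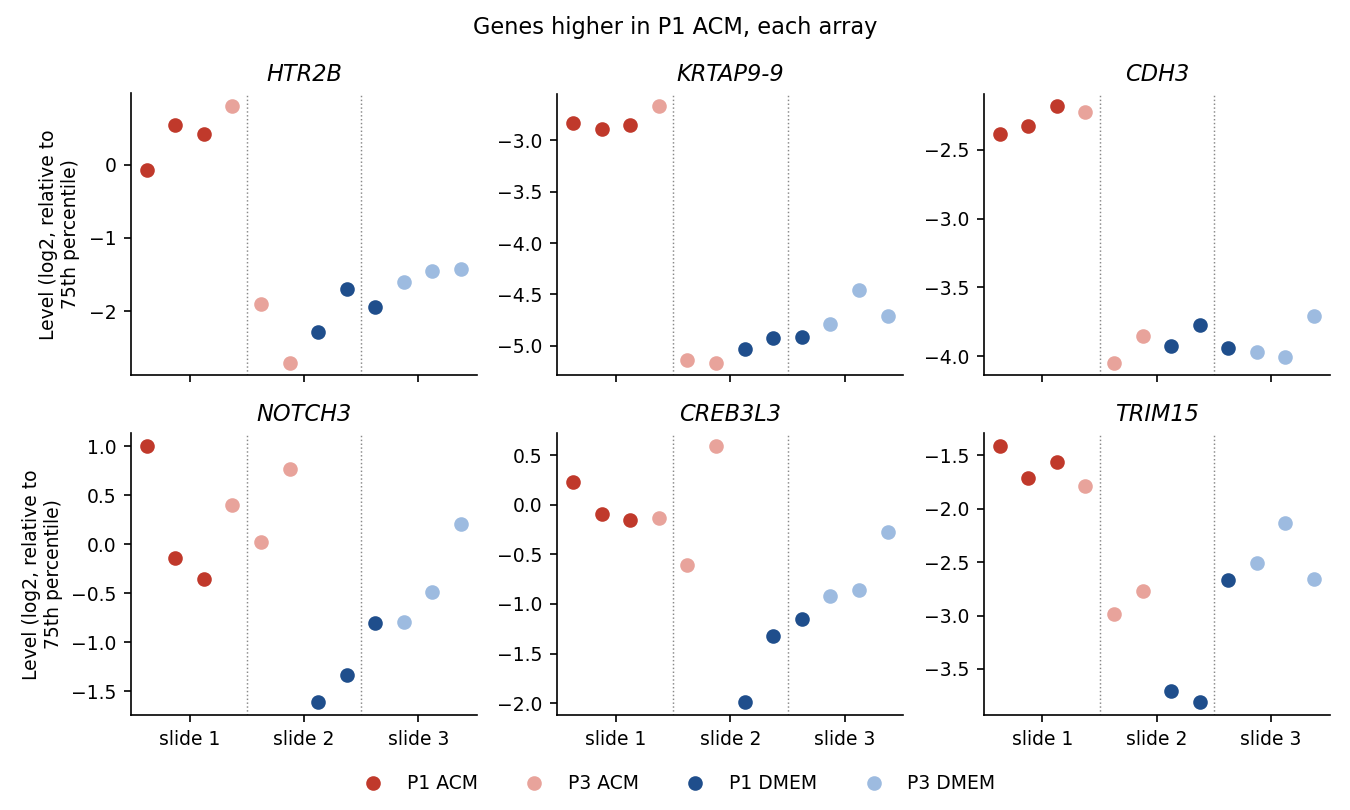
Level on each of the 12 arrays (log2, from the 75th percentile of each array, vertical axis) for 6 genes higher in P1 ACM, ordered by slide, with dotted lines between slides. Each point is an array, in the colour of its group. In HTR2B, KRTAP9-9 and CDH3 the P3 ACM array of slide 1 is beside the P1 ACM arrays and the P3 ACM arrays of slide 2 are beside DMEM, and in NOTCH3 and CREB3L3 the P3 arrays of both media lie above all P1 DMEM arrays.

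The lower ones were INSIG1, TMEM154, MT1F and COL13A1. COL13A1, a transmembrane collagen of cell and matrix contacts, had levels of −3.06, −2.46 and −3.05 in ACM and −1.18, −1.86 and −2.43 in DMEM, without overlap. It differed by −1.04 (SE 0.41, adjusted p = 0.223), and by −2.16 with slide as a block. It missed the thresholds without P1 ACM replicate 1 (−0.94) or 3 (−0.94) or P1 DMEM replicate 1 (−0.72) or 2 (−1.05). Of 56 bright extracellular matrix genes 1 (1.79%) was higher and 2 were lower past the thresholds, against 4.36% and 0.124% of all bright genes. The median difference of the 56 was 0.01. The higher one was DCN, the proteoglycan decorin, at −2.86, −3.01 and −2.78 in ACM and −4.38, −4.36 and −3.81 in DMEM, with a difference of 1.30 (SE 0.27, adjusted p = 0.135), 0.89 with quantile normalization and 0.40 with slide as a block. The other lower one was COL8A1, a short-chain collagen, with −1.50 (SE 0.51, adjusted p = 0.165) and overlapping groups, and it missed p 0.05 without P1 ACM replicate 1 (−0.89) or P1 DMEM replicate 3 (−1.26) and was −0.68 with slide as a block. None (0) of 19 bright integrins was past the thresholds or had an unadjusted p up to 0.05, against 4.48% and 16.8% of all bright genes.

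Of 56 bright cell adhesion molecules 5 (8.93%) were past the thresholds and higher, against 4.36% of all bright genes, and none (0) was lower, against 0.124%. The median difference over the 56 was 0.06, against 0.05 over all bright genes. They were the cadherins CDH10 and CDH3, which join cells through calcium-dependent contacts, and the immunoglobulin-type molecules CNTN2, L1CAM and NCAM2 of axons. CDH10 differed by 1.62 (adjusted p = 0.135), CDH3 by 1.58 (adjusted p = 0.135), CNTN2 by 1.47 (adjusted p = 0.135), L1CAM by 1.25 (adjusted p = 0.135) and NCAM2 by 1.21 (adjusted p = 0.135), and in all 5 the groups did not overlap. L1CAM had levels of −3.71, −3.45 and −3.52 in ACM and −5.15, −4.79 and −4.48 in DMEM. NCAM2 had levels of −0.83, −0.68 and −0.81 in ACM and −2.01, −1.83 and −2.10 in DMEM. In P3 ACM replicate 1, on slide 1, L1CAM was at −3.62 and NCAM2 at −0.73, and in the P3 ACM arrays of slide 2 L1CAM was at −5.25 and −5.24 and NCAM2 at −2.15 and −2.29. With slide as a block the 5 differences were 0.42, −0.17, −0.27, −0.21 and −0.34, and none (0) was past the thresholds. L1CAM fell to 0.71 with quantile normalization. NFASC, the axonal neurofascin that the study also followed, was at 0.83, 0.64 and 0.17 in ACM and 0.17, 0.00 and 0.02 in DMEM. Its difference of 0.48 (SE 0.19, adjusted p = 0.228) was under 2-fold, its other 2 bright probes gave 0.55 and 0.81, and with slide as a block it was 0.16. NFASC in P3 ACM was at 0.75, 0.41 and 0.49, all above the P1 DMEM arrays. Apart from the arrays, the study reports L1CAM, NCAM2 and NFASC as higher in ACM-treated cells by qPCR and by western blot.

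None (0) of 18 bright stem-like state markers was past the thresholds, and 1 had an unadjusted p up to 0.05. Over all bright genes these shares were 4.48% and 16.8%. At 4.48% a list as short as this, or as the hedgehog and hypoxia lists below, would hold few or no genes past the thresholds. NES, an intermediate filament of neural progenitors, differed by 0.07 (SE 0.23), SOX2, a progenitor factor, by 0.04 (SE 0.37), and POU5F1, a pluripotency factor, by −0.06 (SE 0.38), all smaller than their SEs, and other bright probes gave −0.43 for NES and 0.28 for POU5F1. PROM1, the gene of CD133, was not bright on all 12 arrays and was not assessed. ABCG2, a drug efflux pump of side-population cells, differed by 0.99 (SE 0.36, adjusted p = 0.188), just under 2-fold and without overlap, and by −0.53 with slide as a block. None (0) of 16 bright hedgehog pathway genes was past the thresholds, and 2 had an unadjusted p up to 0.05. Of 25 bright hypoxia response genes none (0) was past the thresholds, and 1 had an unadjusted p up to 0.05. CA9, a carbonic anhydrase, differed by 1.102 with an SE of 0.64, and ANGPTL4, a secreted lipase inhibitor, by 1.18 with an SE of 0.85.

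Markers of other cells were read because ACM comes from rat astrocyte cultures and the probes were designed for human transcripts. Of 8 astrocyte markers 5 were bright, and GFAP, the defining filament of astrocytes, S100B and SLC1A2 were not. AQP4, a water channel, was lower past the thresholds (−1.37, adjusted p = 0.248, overlapping groups), and it missed p 0.05 with the replicate number as a block and without P1 ACM replicate 1 (−1.18) or 2 (−1.15) or P1 DMEM replicate 1 (−0.78) or 2 (−1.45). ALDH1L1, a folate enzyme, was higher (1.65, adjusted p = 0.135, no overlap), with P3 ACM at −2.86, −4.80 and −3.82 and a difference of 0.27 with slide as a block. Of 5 microglia markers 2 were bright, CX3CR1 and P2RY12 were not, and AIF1 was matched to no probe. Of 4 oligodendrocyte, 5 neuron and 5 fibroblast markers 3, 3 and 4 were bright, and DCN was the 1 of these past the thresholds. Of 14 markers of the granule lineage and MB, 11 were bright and none (0) was past the thresholds, against 4.48% of all bright genes. ATOH1, ZIC1 and NEUROD1, which define granule cell precursors and neurons, were not bright.

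The effect of ACM was compared between the passages by the difference of the P1 and P3 contrasts. None (0) of the 20114 genes passed an adjusted p of 0.05 for it (smallest 0.9996), and 757 had an unadjusted p up to 0.05, while with quantile normalization none (0) passed either, with 604 at that p. Without P3 ACM replicate 1, 1166 genes passed an adjusted p of 0.05. At P3 the difference between the media was −1.11 for SLC6A9, −0.81 for SLC7A11, −0.63 for INSIG1 and −1.23 for SREBF1, and it was 0.02 for MT1F, 0.75 for NOTCH3, 0.64 for CREB3L3, 0.48 for TMEM63C and −0.08 for TRIM15, the last of the opposite sign to P1.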

How the data were processed

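Single-colour Agilent 4 x 44K arrays of 12 Daoy samples were used. The scanner files that the authors deposited came from Agilent Feature Extraction 11.0.1.1 and give a background-subtracted intensity per spot, with no scaling between arrays. Quantile-normalized log2 values, deposited too, served only as an alternative under their own labels. Control spots (1377 per array) and outlier spots were left out, spots of a probe were averaged, and the 75th percentile over all probes was subtracted from log2 intensity. Accessions were matched to RefSeq (GRCh38.p14, names only) for 25771 of 34127 probes. Groups came from the labels. Group means were compared with limma 3.58.1 in R 4.3.3 (lmFit, contrasts.fit, eBayes, two-sided), with 8 residual degrees of freedom, Benjamini-Hochberg adjustment over 20114 bright genes and the thresholds of the study. Normexp used an offset of 50. The number of arrays limits the precision. Deviations of P1 samples with the same replicate number correlated by 0.49, 0.27 and 0.27, and those of P3 samples by 0.39, −0.26 and 0.02. Every correlation was positive at P1 but not at P3. The main fit did not pair samples by replicate number. A fit with the replicate number within each passage as a block served as an alternative. The fit was tested on simulated data with independent noise and no shift between slides or with signal level, so that test does not cover such shifts.

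The members and gene lists were chosen with earlier results of these data known. Genes named were, among those with a RefSeq symbol, the 10 largest rises and 10 largest falls past the thresholds without overlap, up to 4 genes of a list, the genes the study followed, those past the thresholds in 3 fits, markers past the thresholds, and others where stated. Some single-gene results are not reported here.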

Additional observations from a re-analysis of the deposited data

How the results depend on the processing

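The 6 fits that leave out a P1 array called 755 to 1081 genes, 718 to 1050 of them higher and 9 to 46 lower (9 without P1 ACM replicate 1 and 46 without P1 ACM replicate 3), and none (0) at an adjusted p of 0.05. Against 901 genes past the thresholds (876 higher, 25 lower), there were 401 (306, 95) with quantile normalization, 197 (166) with normexp before it, 109 (32, 77) in the value table under its own labels, 224 (83, 141) with slide as a fixed block, 214 (202, 12) as a random block and, added after seeing the data, 220 (123, 97) with slide and quantile normalization and 419 (313, 106) in the P1 arrays with quantile normalization. Looser filters gave 3418 (3394 higher) for probes bright in 1 group and 3813 (3679, 134) for all probes. Lower genes were 6 by the methods' t-test and 213 with the P1 DMEM array of slide 3 alone. Genes at an adjusted p of 0.05 were 2079 in the P1 arrays, 2134 without P3 ACM replicate 1, 579 by the methods' t-test and 519 in the P1 arrays with quantile normalization, against none (0). The difference between passages gave 1166 without P3 ACM replicate 1. The replicate block of paired numbers gave 931 calls (902 higher, 29 lower), and among the named genes it ended those of FADS2 and AQP4. The cause of these shifts was not tested.

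With slide as a block the sign turned for ACOT12 (−0.49), CD101 (−0.13), CDH3 (−0.17), CNTN2 (−0.27), CTRL (−0.56), HTR2B (−0.81), KRTAP9-9 (−0.36), L1CAM (−0.21), MADCAM1 (−0.45), MICAL2 (−0.53), NCAM2 (−0.34), OR5P2 (−0.0481), PCDHGC4 (−1.28), PGPEP1L (−0.72), SCGN (−0.51) and TP53TG5 (−0.31).

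Under the labels of the value table it turned for ACOT12 (−0.44), AKR1C1 (−0.73), AKR1C3 (−0.76), ALDH1L1 (−0.13), AQP4 (1.31), CBLN3 (1.58), CD101 (−0.21), CDH10 (−1.11), CDH3 (−0.27), CNTN2 (−0.61), COL13A1 (0.28), COL8A1 (0.13), CREB3L3 (−0.13), CTRL (−1.07), DCN (−0.66), ELF3 (0.0012), FADS2 (0.85), HTR2B (−1.23), INSIG1 (0.57), KRTAP9-9 (−0.59), L1CAM (−0.22), LIPG (0.84), MADCAM1 (−0.25), MICAL2 (−1.89), MIMT1 (−1.30), MT1F (0.0089), MT1M (0.47), NCAM2 (−0.32), NOTCH3 (−0.31), OR5P2 (−2.23), PCDHGC4 (−0.81), PGPEP1L (−0.56), SAMD9L (0.19), SCGN (−0.72), SREBF1 (0.0107), TMEM154 (0.43), TMEM63C (−0.39), TP53TG5 (−1.26) and TRIM15 (−0.92).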
